A study of Mus musculus with 8 samples.

Results

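The 28 genes described here make cholesterol and fatty acids or control that synthesis. They were chosen by name as 17 enzymes of sterol synthesis, 4 regulators or carriers of sterols and 7 enzymes of fatty acid synthesis, and each was taken from the rows of the deposited gene tables whose symbol equals its name. A gene was kept where its estimate had the status OK in both columns of a table and reached 1 FPKM (a fragment density corrected for transcript length and library size) in at least 1 of them. By that rule 25 of the 28 genes were kept in every table, namely 15 sterol enzymes, 4 regulators and 6 fatty acid enzymes, out of 12344 genes kept in the female KO table, 11440 in the male KO table and 11084 in the KI table.

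Cells build cholesterol from acetyl-CoA through mevalonate, the isoprenoids, squalene and lanosterol, and build fatty acids from the same acetyl-CoA. Transcription of both pathways is driven by the SREBP factors, which are held in the endoplasmic reticulum by INSIG proteins when sterols are plentiful and are released to the nucleus when sterols are scarce. The fatty acid branch is also driven by the LXR receptors, which sense oxysterols. Myoblasts need both products for new membrane, and the culture medium supplies sterols and fatty acids through its serum.

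The study measured RNA in 8 libraries of satellite-cell-derived myoblasts from B6/129 mice, in 6 groups read out in 3 tables. UTX (gene symbol Kdm6a) is an X-linked demethylase of histone H3. Sorted TdTomato-positive satellite cells were grown with 20% fetal calf serum and 2.5 µM 4-OH-tamoxifen and differentiated for 24 h, in controls and mutants alike. The female WT library (n = 1) carried Pax7-CreER with the Rosa26-Floxed-TdTomato reporter, and the female KO library (n = 1) carried UTX-Floxed besides these. For the male WT and male KO libraries (n = 1 each) and the female Ctrl-KI and KI libraries (2 each) the labels give sex, strain and title but no genotype, and the KI allele is not described. Age is not given, and nothing says whether the libraries of a group came from separate animals. In the female KO group the floxed allele is cut by a tamoxifen-dependent Cre driven from Pax7, so cells that escaped the Cre would keep it.

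The check of the targeted gene differed between the tables. Kdm6a read 20.8 FPKM for female WT against 16.9 for female KO, with deposited confidence bounds of 9.71 to 31.9 and 7.95 to 25.8. In males it stood at 7.87 FPKM in WT (1.57 to 14.2) and 2.08 in KO (0.0854 to 4.07). In the KI table it was 12.8 FPKM in Ctrl-KI and 13.2 in KI. Kdm6a transcript was thus still present in the library labelled female KO, with overlapping bounds in both KO tables, and a value per gene does not show whether the deleted exons were read. All 10 myogenic markers were detected. Their summed level, most of it Acta1 and Myog, was 6266 FPKM in female WT against 2707 in KO, 13057 in male WT against 3738 in KO, and 11370 in Ctrl-KI against 9596 in KI. Pax7, the satellite cell marker, went the other way in the KO tables, at 4.33 against 5.54 FPKM in females and 5.82 against 16.3 in males. Among the 12344, 11440 and 11084 genes the median log2 ratio was -0.08 in the female KO, -0.02 in the male KO and -0.04 in the KI comparison. The read depth is unknown because the tables hold no counts.

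Promoters of the sterol enzymes were compared first, since the genes are known as a set under shared control. RefSeq windows of 300 bases (250 before and 50 after the start, build GRCm38.p6) were found for 22 of the 28 genes, 27 windows in all, and each was searched on both strands for 4 motifs. Fdps, Fdft1, Sqle, Stard4, Scd1 and Scd2 had no window. Hmgcs1 and Tm7sf2 are counted among the promoters although the FPKM rule did not keep them. The NF-Y element CCAAT was held by 13 of 14 sterol enzymes (92.9%), 3 of 3 regulators and 3 of 5 fatty acid enzymes, against 41.1% of 27025 genes. The Sp1 element GGGCGG was held by 13 of 14 sterol enzymes, 3 of 3 regulators and 2 of 5 fatty acid enzymes, against 38.2% of all genes. The SREBP element TCACNCCAC was found in 1 sterol enzyme, Hmgcs1, 137 bases before its start, against 1.44% of all genes, and the E-box CACGTG in 3 sterol enzymes and 1 regulator, against 8.09%. Motifs were counted whether or not they overlapped each other, a match describes letters only, and genes with several windows were counted once if any window held the motif.

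The 250 bases upstream of 4 genes are shown as examples. Mvd and Idi1 are among the sterol enzymes that were lower in all 3 comparisons. Insig1 is the regulator that was higher in KO and lower in KI, and Fasn is the fatty acid synthase. Whether these sequences bear on the changes in level was not tested. Capitals mark CCAAT or its complement ATTGG, and each sequence runs 5′ to 3′ in the direction of transcription. Mvd lies on the minus strand at chr8:122443423-122443672, Idi1 on the plus strand at chr13:8885356-8885605, Insig1 on the plus strand at chr5:28071162-28071411 and Fasn on the minus strand at chr11:120824548-120824797.
Mvd: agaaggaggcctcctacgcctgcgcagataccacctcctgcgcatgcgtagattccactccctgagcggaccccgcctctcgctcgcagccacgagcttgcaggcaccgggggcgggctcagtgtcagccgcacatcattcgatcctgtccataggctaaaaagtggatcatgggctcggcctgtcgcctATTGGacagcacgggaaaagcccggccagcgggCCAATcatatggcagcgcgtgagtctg
Idi1: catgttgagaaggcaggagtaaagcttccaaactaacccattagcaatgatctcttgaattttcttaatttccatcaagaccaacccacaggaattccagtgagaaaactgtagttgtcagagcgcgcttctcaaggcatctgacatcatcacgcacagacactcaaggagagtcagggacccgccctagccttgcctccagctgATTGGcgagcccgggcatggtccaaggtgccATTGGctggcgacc
Insig1: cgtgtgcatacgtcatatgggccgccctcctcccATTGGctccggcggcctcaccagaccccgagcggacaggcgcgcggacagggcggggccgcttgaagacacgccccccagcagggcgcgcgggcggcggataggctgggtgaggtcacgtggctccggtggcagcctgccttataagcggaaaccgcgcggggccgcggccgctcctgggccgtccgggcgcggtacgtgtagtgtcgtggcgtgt
Fasn: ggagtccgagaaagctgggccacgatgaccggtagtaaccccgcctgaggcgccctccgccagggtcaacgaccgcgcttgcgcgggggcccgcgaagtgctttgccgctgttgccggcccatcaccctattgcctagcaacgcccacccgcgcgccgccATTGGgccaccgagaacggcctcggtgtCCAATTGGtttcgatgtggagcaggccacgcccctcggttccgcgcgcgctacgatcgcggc
In Mvd the elements start 60 and 27 bases before the start site and in Idi1 45 and 14 bases before it. Insig1 holds a single CCAAT on the other strand 216 bases upstream, and Fasn holds 3, at 90, 62 and 59 bases upstream, the last of which overlap each other.

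The levels of the genes give the scale on which the changes below are read. Srebf2, the SREBP factor most tied to sterol synthesis, was the highest of the 25 genes in the female WT library at 61.0 FPKM and in the male WT library at 44.2 FPKM, and second in Ctrl-KI at 63.3 FPKM behind Fdps at 65.4. Fdps, the enzyme that makes farnesyl diphosphate, followed in the male WT library at 38.1 FPKM. The lowest genes were Elovl6, an elongase of fatty acids, at 1.98, 0.764 and 1.14 FPKM in the female WT, male WT and Ctrl-KI columns, and Stard4, a sterol carrier, at 3.12, 0.232 and 1.37 FPKM. The deposited bounds of Srebf2 and Fdps overlapped in each control column, so their order is not settled. FPKM is scaled for length, so these levels can be set side by side within a column, but the tables were estimated separately and levels are not compared across them.

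**Figure D1:**
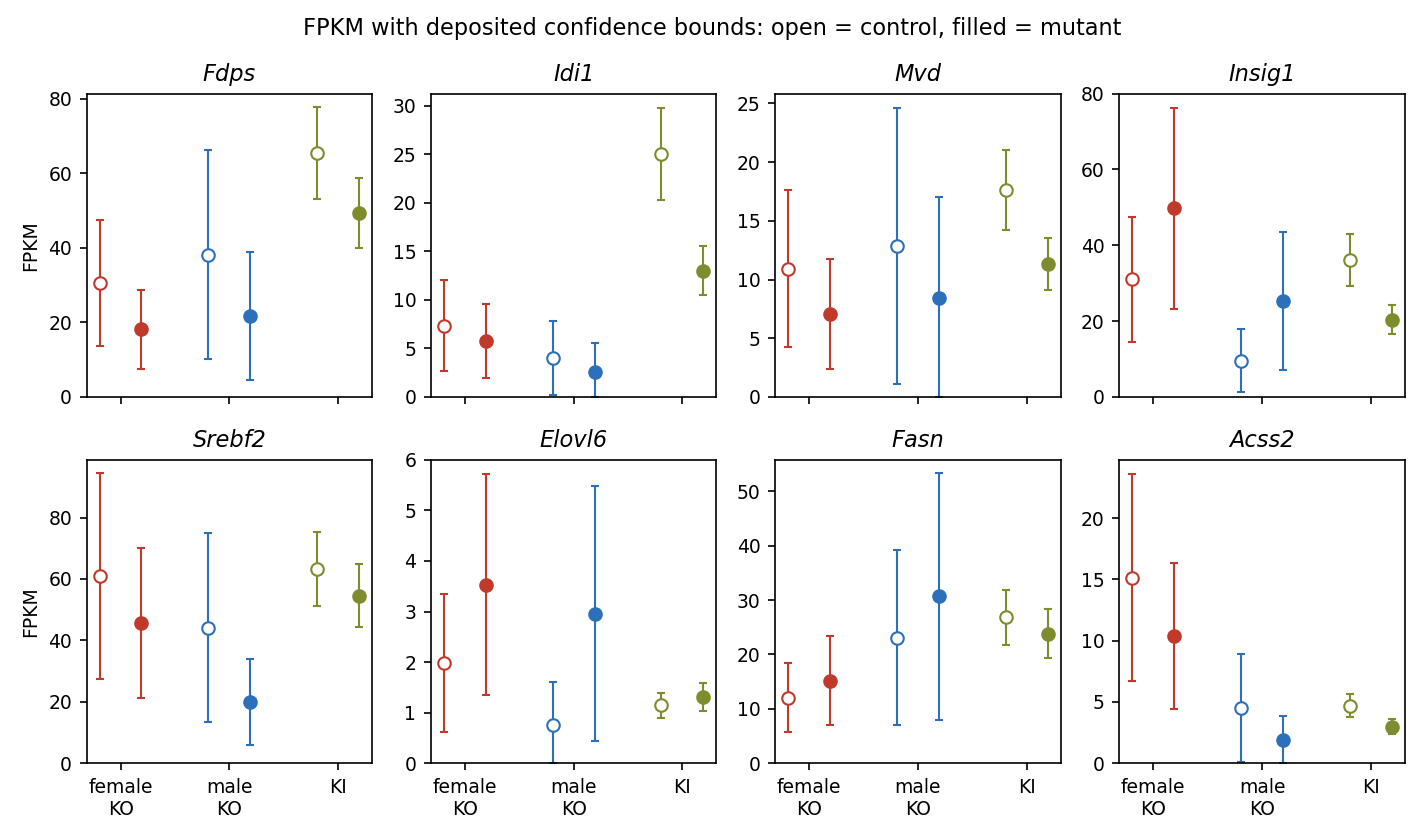
FPKM (vertical, linear axis from 0) of 8 of the genes in the control (open) and mutant (filled) column of each table, with bars for the deposited confidence bounds. The bounds overlap in both KO tables for all 8 genes, and lie apart in the KI table for Idi1, Mvd, Insig1 and Acss2. Of the genes not drawn, the KI bounds also lie apart for Nsdhl, which was lower, and for Ebp, Stard4 and Scd1, which were higher.

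Of the 15 kept sterol enzymes, Pmvk, Mvd, Idi1, Fdps and Cyp51 were lower than control in all 3 comparisons, and the others were not. Of all genes kept, 56.7%, 51.6% and 57.4% were lower in the female KO, male KO and KI comparisons. The share of all genes lower in all 3 was not computed. A table with a single column for each group allows no test, so these values describe the columns. Fdps (mm9 chromosome 3, 88897510 to 88905889) stood at 30.5 FPKM in the female WT and 18.2 in the female KO library, 38.1 and 21.6 for males, and 65.4 and 49.4 for KI. The mutant column was lower each time, and its bounds overlapped those of the control in each table. The log2 ratios, formed as log2 of FPKM plus a pseudocount of 1 and so smaller than the true change for low genes, were -0.72, -0.79 and -0.40. Mvd, which makes isopentenyl diphosphate, was also lower in each table, at 10.9 against 7.08 FPKM in females, 12.9 against 8.47 for males and 17.7 against 11.3 for KI, log2 ratios -0.56, -0.55 and -0.60. Only in the KI table did the bounds of Mvd lie apart, from 14.3 to 21.1 in Ctrl-KI and from 9.08 to 13.5 in KI. Idi1, the isomerase that follows, was 7.34 against 5.75, 4.00 against 2.62 and 25.0 against 13.0 FPKM, with log2 ratios of -0.30, -0.47 and -0.89, and its KI bounds of 20.3 to 29.8 and 10.5 to 15.5 did not touch. Pmvk, a phosphomevalonate kinase, gave -0.46, -0.54 and -0.19. Mvk, the mevalonate kinase, gave -1.09 in females (3.98 to 1.34 FPKM), 0.14 in males and -0.05 in the KI table. Acat2, the thiolase of the first step, gave -0.19 in females, 0.12 in males and -0.23 in the KI table.

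Values at the squalene and lanosterol steps were of both signs in the KO tables and below 0 in the KI table. Fdft1, the squalene synthase, gave -0.23, 0.20 and -0.69, but it shares its locus with Ctsb and its bounds ran from 0 to 44.9 FPKM in the female WT library. Sqle, the squalene epoxidase, gave 0.30, -0.08 and -0.03, and Lss, the lanosterol synthase, 0.10, 0.07 and -0.38. Cyp51, which removes a methyl group of lanosterol, gave -0.06, -0.58 and -0.84, the last from 22.2 to 12.0 FPKM with overlapping bounds at a locus that also holds Akap9. Nsdhl, an X-linked enzyme of sterol synthesis, gave -0.17, 0.05 and -0.58, with the KI bounds apart at 13.2 against 8.50 FPKM. Hsd17b7 gave 0.17, -0.09 and -0.25.

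Values at the late steps were of both signs. Ebp, an X-linked sterol isomerase, was lower in the KO libraries (8.13 to 4.22 FPKM in females, 5.88 to 5.08 in males, log2 -0.81 and -0.18) and higher in KI (5.54 to 8.49 FPKM, 0.54, bounds apart). Dhcr7, a sterol reductase of the final steps, read 5.22 and 2.20 FPKM (control, then mutant) for females, 5.42 and 3.56 for males and 6.99 and 7.18 for KI, with log2 ratios of -0.96, -0.49 and 0.03. Sc5d gave -0.39, 0.07 and -0.16.

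As a list, 12 of 15 sterol enzymes were lower than control in the female KO, 9 in the male KO and 13 in the KI comparison, with medians of -0.30, -0.09 and -0.25. Of all genes kept, 56.7%, 51.6% and 57.4% were lower. A single sterol enzyme, Mvk, was at least 2-fold lower in females. Summed over the 15 enzymes, the control and mutant totals were 143 and 109 FPKM in the female KO table, 124 and 96.3 in the male KO table, and 234 and 175 in the KI table, that is 76.4%, 77.8% and 74.8% of control, against 88.3%, 88.1% and 93.3% for all genes. Without Fdps, the most abundant enzyme, these shares were 81.1%, 87.3% and 74.4%, so in males much of the lower sum lay in 1 gene. In males the direction depends on the scaling. The median was 0.06, with 8 genes higher and 7 lower, when values were rescaled to TPM (the same values scaled to a fixed column sum) over loci with a symbol, and -0.70, with 0 genes higher, when rescaled over all loci. Of the male FPKM total, 72.8% (WT) and 86.1% (KO) lay at loci that carry no symbol, and rescaling over all loci moved the median of all genes to -0.70 in males and -0.77 in KI. Relative to the median of all genes, the sterol enzymes stood at -0.22, -0.07 and -0.21 as deposited.

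**Figure D2:**
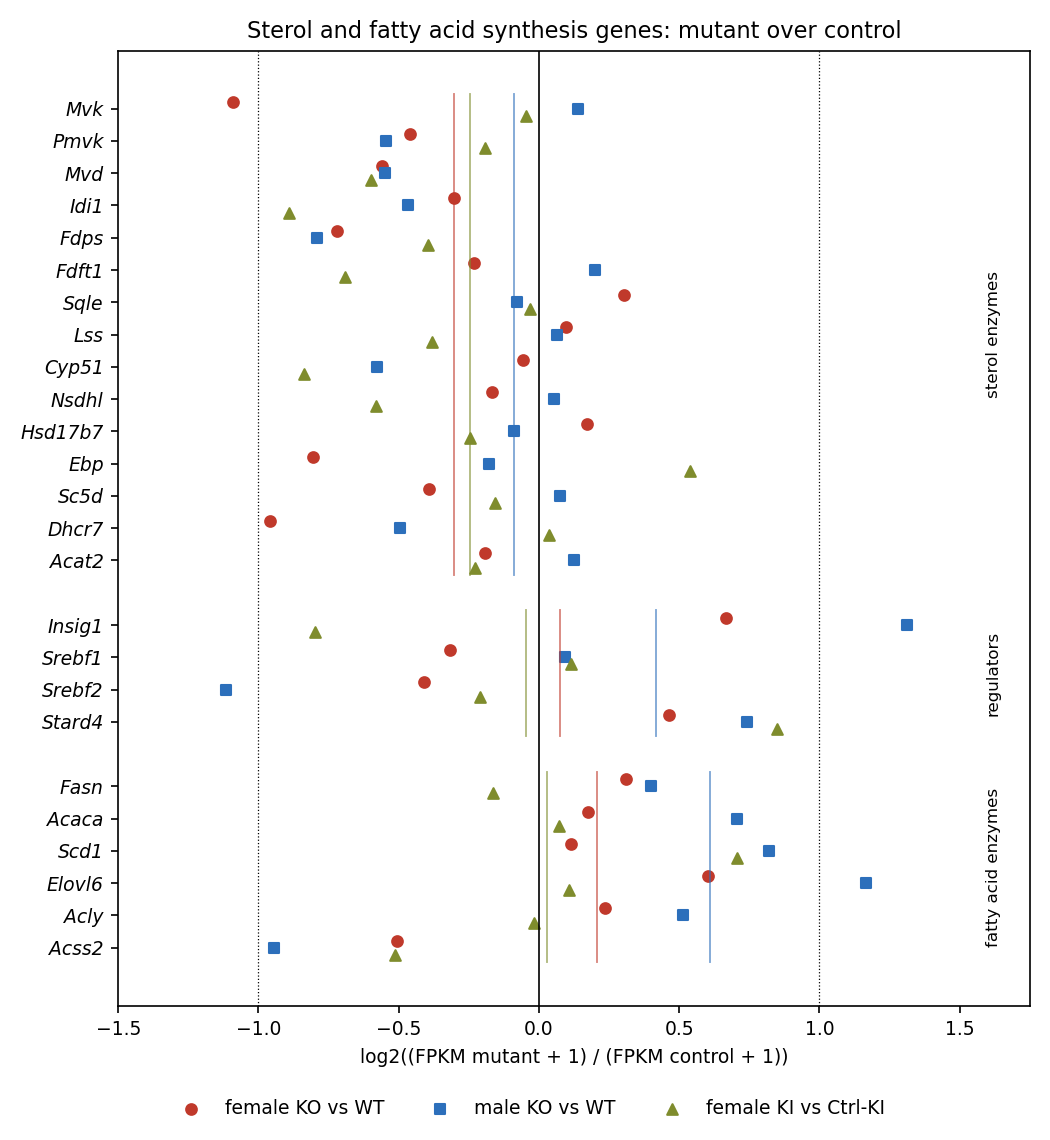
Log2 ratio of mutant over control for each gene in the 3 comparisons, grouped as sterol enzymes, regulators and fatty acid enzymes; coloured vertical lines are the medians of each group and dotted lines a 2-fold difference. Pmvk, Mvd, Idi1, Fdps, Cyp51, Srebf2 and Acss2 are below 0 in all 3, while Insig1 is above 0 in both KO comparisons and below 0 in KI.

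The 4 regulators differed in direction. Insig1 (mm9 chromosome 5, 28397952 to 28405202), which retains the SREBP factors in the endoplasmic reticulum, was higher in both KO comparisons and lower in KI. Its control and mutant values were 31.0 and 49.8 FPKM for the female KO table, 9.58 and 25.3 for the male KO table and 36.2 and 20.4 for the KI table. The KO columns were higher than their controls with overlapping bounds (14.5 to 47.5 and 23.3 to 76.3 in females), while the KI column was lower with bounds apart (29.4 to 43.0 in Ctrl-KI, 16.5 to 24.3 in KI). The log2 ratios were 0.67, 1.31 and -0.80. Srebf2 was lower in each table, at 61.0 against 45.6, 44.2 against 19.9 and 63.3 against 54.5 FPKM (-0.41, -1.12 and -0.21), and its locus also holds Mir33. Stard4 was higher in each table, at 3.12 against 4.68, 0.232 against 1.06 and 1.37 against 3.28 FPKM (0.46, 0.74 and 0.85), with the bounds apart in KI only. Its male value passed the filter through the KO column, so its direction there was set by the filter. Srebf1, the SREBP factor tied to fatty acid synthesis, gave -0.32, 0.09 and 0.12 at a locus that also holds Rai1.

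Fatty acid enzymes stood higher in the KO libraries, apart from Acss2. Fasn (mm9 chromosome 11, 120667272 to 120685861), the fatty acid synthase, read 12.1 and 15.2 FPKM (control, then mutant) for the female KO, 23.1 and 30.7 for the male KO and 26.9 and 23.9 for the KI comparison (0.31, 0.40 and -0.17). Acly, which supplies acetyl-CoA from citrate, was 19.2 and 22.8, 25.1 and 36.2, and 27.2 and 26.9 FPKM (0.24, 0.51 and -0.02). Both were higher in the KO columns and slightly lower in KI, all with overlapping bounds. Acaca, the acetyl-CoA carboxylase, gave 0.17, 0.71 and 0.07. Scd1, which places the first double bond, was 21.2 and 23.1, 3.06 and 6.18, and 5.22 and 9.16 FPKM (0.11, 0.82 and 0.71), and only its KI bounds lay apart. Scd1 and Scd2 are close copies whose reads may be shared. Elovl6 gave 0.60, 1.17 and 0.11, and in males it too passed the filter through the KO column. Acss2, which makes acetyl-CoA from acetate, was lower in each table, at 15.1 against 10.4, 4.52 against 1.87 and 4.68 against 2.98 FPKM (-0.51, -0.94 and -0.51, the last with bounds apart). Its locus also holds 4930471I20Rik. The median of the 6 kept enzymes was 0.21, 0.61 and 0.03, which is 0.29, 0.63 and 0.07 above the median of all genes. Rescaled to TPM over all loci, 5 of these enzymes were kept in males, 2 of them higher and 3 lower. Their median was -0.25, still 0.45 above the median of all genes. Of 11 adipocyte markers, 3 were kept in males: Cebpa at 5.69 and 19.9 FPKM, Pparg at 2.06 and 2.50, and Fabp4 at 0 and 1.50, which passed the filter through the KO column. Adipoq, Cidec and Cfd were at 0 in both male columns, and the part of these markers in the male values was not tested.

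The number of genes at least 2-fold changed was small in each table. In females 0 of 25 were at least 2-fold higher, against 4.49% of all genes, and 1 was lower (Mvk), against 4.40%. In males 2 were higher (Insig1, and Elovl6, which could only be higher because it passed the filter through the KO column), against 9.90%, and 1 was lower (Srebf2), against 6.47%. In the KI comparison 0 were higher, against 3.86%, and 0 lower, against 0.893%. The deposited bounds lay apart for 0 of 25 genes in females (0.899% of all genes) and 0 in males (0.865%), and for 3 higher and 5 lower genes in KI (12.0% of all genes, both directions together). By direction, the bounds of 917 of all 11084 genes in KI lay apart and higher, and those of 413 apart and lower. The KI columns pool 2 libraries and their bounds are narrower (40.8% of the FPKM in the median gene of the list in Ctrl-KI, against 128% in the female and 192% in the male WT column), so a count of bounds apart cannot be set against the KO tables.

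The male and female KO ratios were read together, since the sexes are the only repeat of that comparison. Of the 6 fatty acid enzymes 5 were higher in both sexes and 1 (Acss2) was lower in both, while 27.5% of 10482 genes were higher in both and 39.0% lower in both. Elovl6, among the 5, passed the male filter through the KO column alone, so its male direction adds nothing to this count. Of 15 sterol enzymes 7 were lower in both (Pmvk, Mvd, Idi1, Fdps, Cyp51, Ebp and Dhcr7), 1 was higher in both (Lss) and 7 had opposite signs. Insig1 was higher in both and Srebf2 lower in both. Stard4 was also higher in both, but its male direction was fixed in the same way. With limma over both sexes (two-sided, Benjamini-Hochberg adjusted over all 10482 genes), 0 genes were called higher (0.00%) and 0 lower (0.00%), and 0 of 25 genes here, with an unadjusted p under 0.05 for 1000 genes higher and 1079 lower. Of the genes here, Insig1 (mean log2 ratio 0.99 ± 0.26 SE, adjusted p = 0.14), Elovl6 (0.88 ± 0.28, 0.18), Fdps (-0.76 ± 0.22, 0.16), Srebf2 (-0.76 ± 0.26, 0.20), Acss2 (-0.73 ± 0.26, 0.21) and Dhcr7 (-0.73 ± 0.27, 0.22) had an unadjusted p under 0.05, from 2 ratios each. The male ratio of Elovl6 in this test is the one whose direction the filter fixed.

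**Figure D3:**
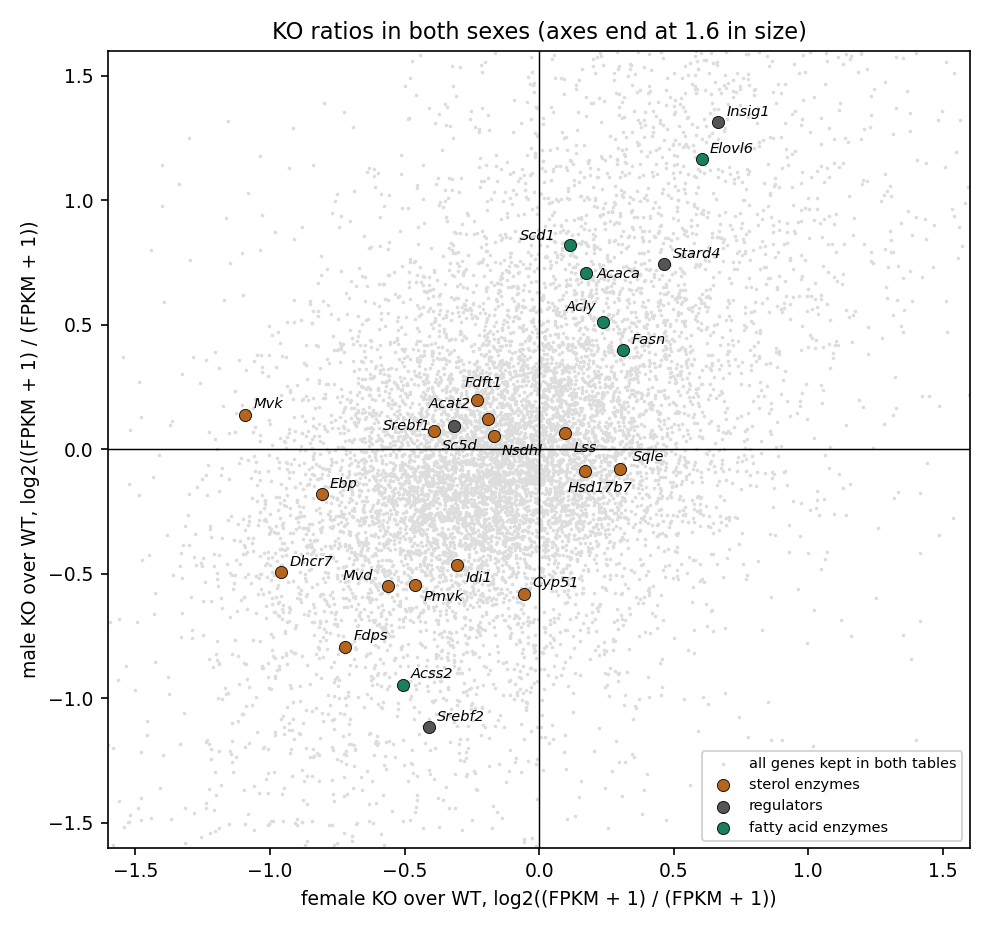
Log2 ratio of KO over WT in females (horizontal) against males (vertical), with a grey point for every gene kept in both tables and coloured points for the genes described here. Axes end at 1.6 in size, so genes beyond are not drawn. The 5 fatty acid enzymes other than Acss2 lie above 0 on both axes, and 12 of 15 sterol enzymes lie to the left of 0.

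Related genes were described from lists of neighbouring pathways. Sterol efflux, uptake, storage and LXR genes had medians of 0.50 (11 kept), 0.85 (9) and 0.09 (10) in the female KO, male KO and KI comparisons. Lrp1, a lipoprotein receptor, was at 52.3 and 111 FPKM in female WT and KO and at 35.9 and 89.1 in males. Abca1, an LXR target that exports cholesterol, was at 17.2 and 32.8 in females and 0.924 and 4.32 in males. In males and in the KI table (0.298 and 1.76) it passed the filter through the mutant column alone, so its direction there was fixed, and it enters the list medians. Vldlr, another lipoprotein receptor, was higher in females (61.1 to 96.1 FPKM, 0.64) and lower in males (15.1 to 5.36, -1.34). Other lipogenic genes had medians of -0.11, -0.05 and 0.06, with Fads1, a desaturase, at 0.41, 1.44 and 0.82 and Acsl1, which activates fatty acids, at -1.41 in the female and -1.36 in the male KO. Late sterol genes and the rest of the SREBP machinery had medians of -0.07, 0.11 and -0.09, with Sc4mol, a methyl sterol oxidase, at -0.75 in KI (43.6 to 25.5 FPKM).

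**Figure D4:**
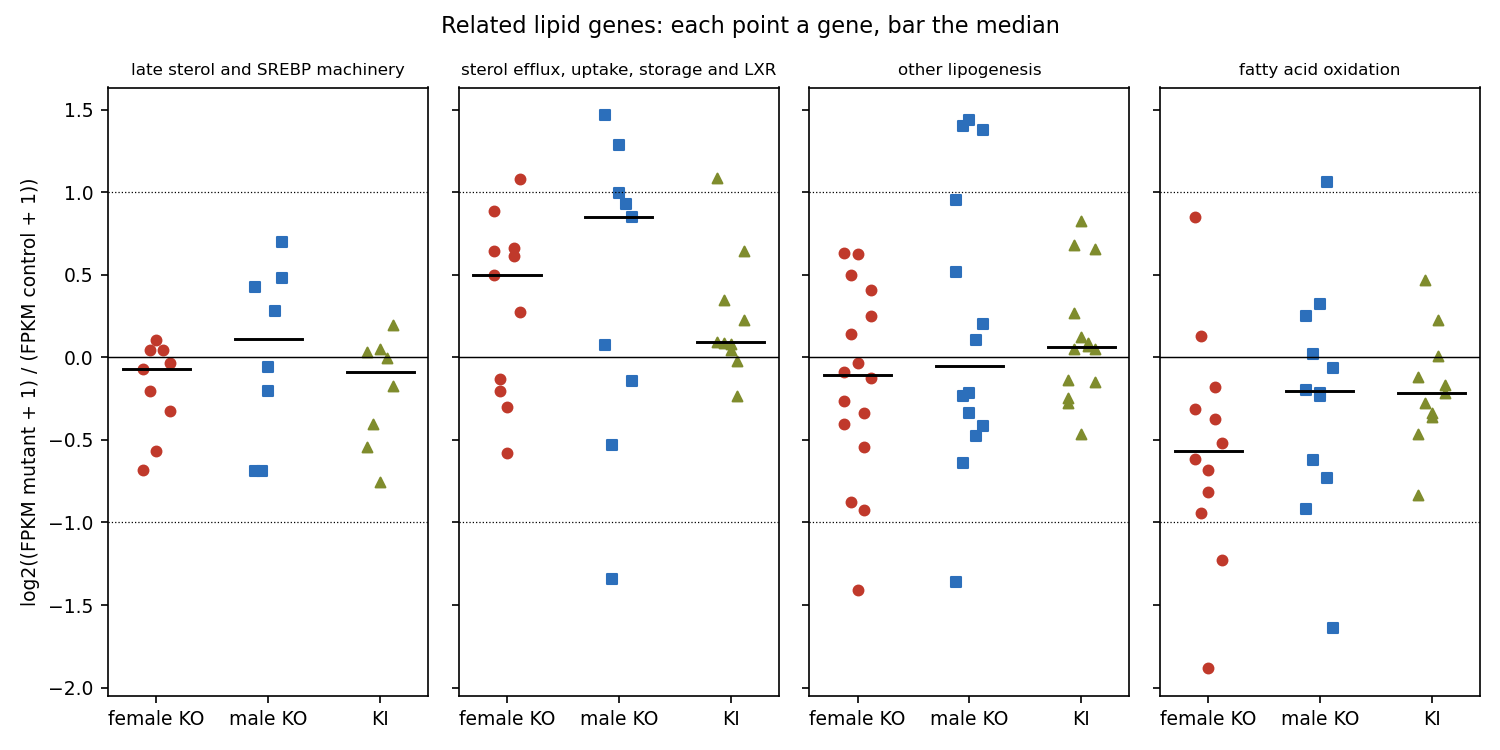
Log2 ratio of mutant over control for the genes of the 4 related lists in each comparison, one point per kept gene with the median marked. The efflux and uptake list has medians of 0.50 and 0.85 in the KO comparisons, and the fatty acid oxidation list -0.57 and -0.21.

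Markers of other cells also differed between the columns. Adipocyte markers summed to 34.8 and 43.3 FPKM (control, then mutant) for females, 8.66 and 25.0 for males, and 11.0 and 10.3 for KI, while Cidec and Cfd were at 0 in every column. Most of the female sum was Fabp4 (25.6 and 33.4 FPKM) and most of the male sum Cebpa. Fibro-adipogenic markers summed to 320 and 758, 20.6 and 77.3, and 10.8 and 458 FPKM, with 4 of 7, 4 of 5 and 7 of 8 kept markers at least 2-fold higher, against 4.49%, 9.90% and 3.86% of all genes. Of these kept markers 0, 2 and 7 were under 1 FPKM in the control and so passed the filter through the mutant column, which fixed their direction. Endothelial markers summed to 19.0 and 32.0, 1.37 and 70.2, and 2.31 and 9.39 FPKM, and immune markers to 9.04 and 16.3, 1.46 and 9.23, and 1.05 and 32.9. Nearly all of the immune sum in KI was Lyz2, at 0.282 and 31.0 FPKM. The part of all these markers in the results above was not tested. In bulk RNA fewer cells of a type and less RNA per cell cannot be told apart.

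Of the 3 genes not kept, Hmgcs1 was listed only at loci of an unplaced chromosome 13 contig, at 0 in every column. Tm7sf2 shared a locus with 1110014N23Rik (-0.15, 0.08 and -0.26) and Scd2 with Mir5114 (167 to 180, 22.9 to 51.0 and 67.0 to 64.5 FPKM).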

How the data were processed

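RNA was sequenced from 8 libraries, grouped by their titles. The submitters' processing notes name Cuffdiff, Cufflinks 2.2.1, edgeR, TopHat2 2.0.12 and Bowtie2 2.2.4, besides bedtools 2.16.2 and HTSeq 0.6.1, on build mm9; which tool did what, the annotation and the strand setting are not given in the sources used here. The deposited tables hold FPKM, per the file headers, with a lower and an upper confidence bound (level not stated) and a status, 1 library per column in the KO tables and 1 pooled column for the 2 libraries of each KI group, so the replicate test planned for KI could not be run. The tables held 23115, 28603 and 28748 loci, of which 0, 5680 and 5971 without a symbol and 6, 63 and 16 without status OK were left out. Genes needed 1 FPKM in 1 column.

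Ratios were log2((FPKM + 1)/(FPKM + 1)), mutant over control within a table. The KO ratios of both sexes entered limma 3.58.1 (R 4.3.3, eBayes with trend, 1 residual degree of freedom, threshold 0.05). The fit was first run on simulated ratios. How many changed genes it called there is not given, so its power at the sizes seen here is not stated. The p-values of the KO fit test the mean of the female and male ratios against 0. The difference between the sexes is the only replicate error behind them, moderated over all genes, and separate animals are not stated. Other steps used Python 3.11.15. Starts are printed 1 higher than deposited, since microRNA loci matched RefSeq lengths for 227 of 233 loci that way. Without a stated strand, overlapping genes cannot be told apart. Besides the shared loci named in the results, Lss overlapped 4930483K19Rik in each table. Sqle overlapped E430025E21Rik in the male KO and KI tables, and Acaca overlapped Gm11437 in the KI table. Alternatives were the pseudocount, the filter, the scaling, the status, merged symbols and the call rule. The members and lists were chosen with earlier results of these data known. Named genes are every member, the highest and lowest gene of each related list, and genes at least 2-fold changed alike in both KO comparisons; from this set the text prints those that bear on the members. Not every result the rule selects is given, and 1 gene it selects is not reported here.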

Additional observations from a re-analysis of the deposited data

Results flagged for a closer look

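For 8 of the 25 genes the KO ratio had opposite signs in females and males, with 1 library per group in each sex, and the difference was not tested. The share was similar over all genes kept in both sexes, where 3511 of 10482 had opposite signs. Mvk was at -1.09 in females and 0.14 in males, Fdft1 at -0.23 and 0.20, Sqle at 0.30 and -0.08, Nsdhl at -0.17 and 0.05, Hsd17b7 at 0.17 and -0.09, Sc5d at -0.39 and 0.07, Acat2 at -0.19 and 0.12, and Srebf1 at -0.32 and 0.09 on the log2 scale. The deposited bounds of all 8 overlapped in both sexes.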

How the results depend on the processing

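With bounds 128% to 201% as wide as the FPKM in the KO tables and no counts, differences of the size seen here could not be resolved within a KO table. No paired analysis was possible because the KI table holds 1 pooled column for both libraries of each group, and for the same reason no KI library could be left out. Of the genes at least 2-fold lower in female KO (1), a pseudocount of 0.1 FPKM gave 2, and a pseudocount of 5, a filter of 5 FPKM and bounds lying apart each gave 0. In male KO, 1 gene was lower and 2 were higher. A pseudocount of 0.1 gave 2 lower and 3 higher, a pseudocount of 5 gave 0 lower and 1 higher, a filter of 5 FPKM gave 1 higher, TPM over all loci gave 4 lower and 0 higher, TPM over loci with a symbol gave 0 lower and 4 higher, and bounds apart gave 0 and 0. In KI, with 0 and 0, a pseudocount of 0.1 and TPM over loci with a symbol each gave 1 higher, TPM over all loci gave 9 lower, and bounds apart gave 3 higher and 5 lower. The female regulator median (0.07) was -0.015 with a pseudocount of 5 and -0.32 with a filter of 5 FPKM. The male regulator median (0.42) was 0.74 with a pseudocount of 0.1, 0.14 with 5, 0.093 with a filter of 5 FPKM, -0.59 with TPM over all loci and 0.74 with TPM over loci with a symbol. Only 3 of the 4 regulators were kept with the filter of 5 FPKM in each sex and with TPM over all loci in males. Those medians are thus over a different set of genes. TPM over all loci gave -0.70 for male sterol enzymes (-0.09) and -0.25 for the 5 fatty acid enzymes still kept in males (0.61 for 6). It gave -0.94 for KI sterol enzymes (-0.25), -0.84 for KI regulators (-0.05) and -0.69 for KI fatty acid enzymes (0.03). TPM over loci with a symbol gave 0.058 for male sterol enzymes and 0.052 for KI regulators, and counting merged loci gave -0.018 for KI fatty acid enzymes. The joint limma test called 0 of the genes here in every alternative. Over all genes it called 130 (42 higher, 88 lower) with a filter of 5 FPKM, 145 (52 and 93) with TPM over all loci and 1 with a pseudocount of 0.1 or with TPM over loci with a symbol. The cause was not tested.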

Other observations

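Genes of fatty acid oxidation, which burn what the synthesis enzymes make, had medians of -0.57 (12 kept), -0.21 (12) and -0.21 (11) in the female KO, male KO and KI comparisons. Fabp3, a fatty acid carrier of muscle, was at 122 and 32.3 FPKM in female WT and KO and at 35.3 and 10.7 in males, log2 ratios -1.88 and -1.64. It was at least 2-fold lower in both sexes, as was Acsl1, and neither passed the joint limma test (adjusted p = 0.092 for each). With a filter of 5 FPKM both passed it (adjusted p = 0.045 for Fabp3 and 0.049 for Acsl1), and over the alternatives the adjusted p of each ran up to 0.66. Acadl, a dehydrogenase of long acyl chains, was at 169 and 94.6 FPKM in the KI table (-0.83). Cpt1a, which admits fatty acids to mitochondria, was at 1.06 in the male KO, and Ppard, a nuclear receptor of this pathway, at 0.85 in the female KO. The summed level of the myogenic markers was lower in both KO libraries too, though Pax7 was higher, and their part in these values was not tested.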
